A study of Mus musculus with 24 samples.

Results

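MLL::ENL (ME) was turned on either before birth or at birth in mice, and blood stem and progenitor cells of both kinds of mice were compared at the same age. The comparison holds 8 of the 24 RNA-seq libraries of the series, chosen by their titles. Of these, 4 come from P28 bone marrow LSK cells in which ME came on at E10.5, before birth (E10.5-induced), and 4 from P28 bone marrow LSK cells with ME induced at P0, the day of birth (P0-induced). LSK cells are lineage-negative, Sca-1-positive, KIT-positive marrow cells, which include the blood stem cells and the multipotent progenitors, while the series' design text names lineage-negative KIT-positive cells. The 8 libraries share the human ME transgene in a Tet-off system, in which a tetracycline-controlled activator drives the gene while no doxycycline is given. The promoter of the activator, the strain and the sex of the mice are not given in the sources used here. The 4 libraries of wild-type P28 marrow LSK cells, which lack ME, are set beside them as a reference and did not enter the fit. At P28 the E10.5-induced cells had also carried ME for longer, so age at induction and time since induction cannot be told apart.

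MLL, encoded by KMT2A, is a histone methyltransferase that keeps developmental genes active, and ENL, encoded by MLLT1, is a chromatin reader of the machinery that releases RNA polymerase II into elongation. The fusion of both joins the DNA-binding part of MLL to that machinery, which raises HOXA genes and their cofactors and can turn progenitors into leukaemia cells. Fetal blood stem cells divide rapidly and use an RNA-binding programme led by Lin28b, and after birth they shift to a slower, adult state. The study's title names a protection against ME leukaemia that is set in fetal life and that depends on MLL3, the methyltransferase encoded by Kmt2c. The question here is how the transcriptome of young marrow differs with the time at which ME was turned on.

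The sorting genes were not called between the groups. Kit, the receptor for stem cell factor, measured 1047 ± 145 CPM after E10.5 induction and 950.1 ± 115 CPM after P0 induction (SD, n = 4). Its difference was -0.12 on the log2 scale (SE 0.10). Ly6a, which codes for Sca-1, measured 227 ± 25.1 CPM after E10.5 induction and 227 ± 18.3 CPM after P0 induction (SD, n = 4), a difference of 0.02 on the log2 scale (SE 0.09). The stem and progenitor markers Cd34 (log2 fold change -0.01, SE 0.07, edgeR adjusted p = 0.970) and Flt3 (log2 fold change 0.29, SE 0.09, edgeR adjusted p = 0.0574) were not called, and neither was Slamf1 (log2 fold change -0.50, SE 0.19, edgeR adjusted p = 0.134), which stayed under 10 CPM. The design text calls the libraries biological replicates, and whether each came from 1 mouse is not given. Library totals were 42994217 to 80393500 counts after E10.5 induction and 47962965 to 61331788 counts after P0 induction. E10.5-induced library 3 was the 1 of the 8 with Xist RNA above 1 CPM (14.8 CPM), and its Y genes were at or near 0. E10.5-induced library 4 lay nearest to the other group. On the leading principal component of 10195 genes, with 40.9% of the variance, it sat at -2.86 against -22.3 to -15.4 for its group and 10.8 to 17.9 for the P0-induced libraries.

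**Figure D1:**
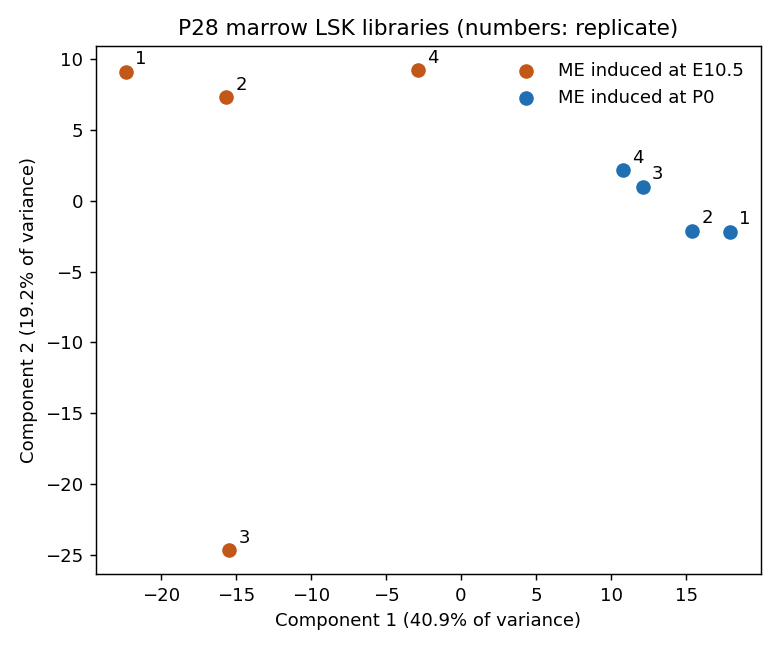
Principal components of the 8 libraries from log2 CPM of 10195 genes, with the share of variance on each axis; points are libraries and numbers are replicates. The P0-induced libraries sit together on the right, E10.5-induced library 4 lies between them and its own group, and E10.5-induced library 3 stands apart on the vertical axis.

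Induction time was accompanied by changes of mostly small size in many genes. With the 8 libraries fitted alone, 1147 of 18067 genes (6.35%) were called at an edgeR adjusted p under 0.05. Of all genes tested, 528 (2.92%) were higher after P0 induction and 619 (3.43%) were lower. The median change among called genes was 0.548 on the log2 scale without regard to sign, and 247 genes (147 higher, 100 lower) changed at least 2-fold. The 2 groups did not overlap for 1036 of the called genes (90.3%) and for 2461 of all genes tested (13.6%). The share of calls that were higher was 46.0%, 40.8% with RLE scaling factors and 66.0% with plain library totals.

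These counts depended on which libraries were fitted. With all 24 libraries of the series in 1 fit, which also tests more genes and scales over more libraries, edgeR called 11 of 23059 genes (0.0477%), and 998 had an unadjusted p under 0.05. The groups outside this comparison varied more, with a biological coefficient of variation of 43.3% to 69% against 24.3% after E10.5 induction and 18.9% after P0 induction. Each of the 1147 genes had the same sign in the fit of all 24 libraries, which holds the same 8 libraries, so the sign could hardly differ. The 11 genes were Klhl4, Gata3, Mmrn1, Paqr5, Rnf217 and C1qtnf6, which were higher after P0 induction, and Pcdh7, Tifab, Pde3b, Dbn1 and Ehd3, which were lower. With only the 8 libraries, the count was 420 without E10.5-induced library 1, 625 without E10.5-induced library 2 and 1974 without E10.5-induced library 4. It was 335, 540 and 694 without P0-induced libraries 1, 2 and 3. A set of 297 genes (1.64%) was called in the fit of all 8 libraries and in each of the 8 fits that left out 1 library, 144 of them higher and 153 lower. For genes named below with an adjusted p, the number of these 8 fits that kept the call is given where it is under 8. The genes next to the largest changes, and some genes given by log2 fold change alone, carry no such number.

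Gata3 and Mmrn1 were among the genes that rose most after P0 induction. Gata3 (ENSMUSG00000015619, chromosome 2, 9857078 to 9890034), a transcription factor of T cells and of stem cell renewal, measured 2.78, 5.08, 5.20 and 4.34 CPM in the 4 E10.5-induced libraries and 23.6, 19.3, 20.3 and 23.0 CPM in the 4 P0-induced libraries. Every P0-induced library was above every E10.5-induced one, at the level of wild type (17.6 to 27.5 CPM), and the gene rose (log2 fold change 2.32, SE 0.19, edgeR adjusted p = 9.38e-06). Mmrn1 (ENSMUSG00000054641, chromosome 6, 60924976 to 60989378), which codes for multimerin 1, a protein of platelet granules and vessel walls, measured 28.2, 22.6, 29.3 and 21.3 CPM in the 4 E10.5-induced libraries and 90.6, 97.5, 107 and 102 CPM in the 4 P0-induced libraries. It was lower in each E10.5-induced library than in any P0-induced library or any wild-type library (102 to 134 CPM), and rose with P0 induction (log2 fold change 1.98, SE 0.11, edgeR adjusted p = 2.52e-07).

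Klhl4 (ENSMUSG00000025597, chromosome X, 114474333 to 114560829), a kelch-family gene on the X chromosome, gave the largest rise of the genes named by rule. It measured 0.463, 1.46, 0.677 and 0.204 CPM in the 4 E10.5-induced libraries and 24.6, 22.2, 25.8 and 17.7 CPM in the 4 P0-induced libraries. The gene stayed under 2 CPM in the E10.5-induced libraries and was near the wild-type level (14.7 to 24.4 CPM) in the P0-induced ones (log2 fold change 4.95, SE 0.44, edgeR adjusted p = 4.11e-04). Tfec, a transcription factor of the MITF family, measured 5.62, 4.06, 6.73 and 6.75 CPM in the 4 E10.5-induced libraries and 15.2, 13.0, 16.0 and 18.2 CPM in the 4 P0-induced libraries (log2 fold change 1.45, SE 0.19, edgeR adjusted p = 5.36e-04). In wild type it was higher still, at 23.4 to 34.2 CPM.

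Mmp2, Paqr5 and Il17re were also among the 12 largest rises. Mmp2, a secreted collagenase, measured 5.49, 5.09, 10.3 and 8.63 CPM after E10.5 induction and 21.2, 21.6, 21.6 and 23.3 CPM after P0 induction (log2 fold change 1.59, SE 0.20, edgeR adjusted p = 5.04e-04). Paqr5, a membrane progestin receptor, measured 18.4, 12.9, 14.5 and 14.9 CPM after E10.5 induction and 47.4, 43.2, 39.5 and 39.3 CPM after P0 induction (log2 fold change 1.5, SE 0.13, edgeR adjusted p = 1.03e-05), and its P0-induced libraries lay above wild type (23.9 to 30.8 CPM). Il17re, a receptor subunit for interleukin 17C, measured 23.1, 19.5, 26.8 and 25.8 CPM after E10.5 induction and 57.5, 54.8, 62.4 and 68.1 CPM after P0 induction (log2 fold change 1.37, SE 0.11, edgeR adjusted p = 9.38e-06). Like all of these rises, the 3 genes were chosen from those without overlap between the groups. Slc35d3, a transporter-family gene of platelet dense granules, rose by 1.42 on the log2 scale, and Tmem273, a membrane protein gene, by 1.38. Stxbp4, a syntaxin-binding protein gene, was nearly constant at 30.3, 31.2, 30.9 and 30.4 CPM after E10.5 induction and measured 92.0, 82.0, 73.2 and 63.9 CPM after P0 induction (log2 fold change 1.36, SE 0.11, edgeR adjusted p = 6.97e-06). Neat1, the long noncoding RNA that scaffolds paraspeckles, measured 3.96, 4.57, 5.34 and 11.3 CPM after E10.5 induction and 16.2, 16.6, 15.9 and 14.0 CPM after P0 induction. It rose (log2 fold change 1.33, SE 0.28, edgeR adjusted p = 0.0187, called in 6 of the 8 fits without 1 library), with E10.5-induced library 4 nearest to the P0-induced group and both groups under wild type (32.6 to 35.7 CPM).

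Among called genes without overlap whose log2 CPM averaged 3 or more, the largest fall was that of Pcdh7 (ENSMUSG00000029108, chromosome 5, 57717967 to 58133230), a protocadherin of cell adhesion. It measured 32.1, 42.5, 45.9 and 23.9 CPM in the 4 E10.5-induced libraries and 2.82, 1.84, 2.69 and 2.11 CPM in the 4 P0-induced libraries. The lowest E10.5-induced library was far above the highest P0-induced one, and the P0-induced libraries sat in the wild-type range (1.71 to 4.53 CPM, log2 fold change -3.91, SE 0.22, edgeR adjusted p = 2.94e-07). Tifab (ENSMUSG00000049625, chromosome 13, 56173704 to 56178885), a negative regulator of the TRAF6 and NF-kB pathway, measured 82.5, 62.6, 91.2 and 94.3 CPM in the 4 E10.5-induced libraries and 21.5, 13.4, 15.4 and 18.2 CPM in the 4 P0-induced libraries (log2 fold change -2.25, SE 0.16, edgeR adjusted p = 9.38e-06). Wild type held 7.30 to 19.6 CPM, again beside the P0-induced group. Igf2bp2 (ENSMUSG00000033581, chromosome 16, 22059009 to 22163299), an RNA-binding protein gene of the fetal Lin28b and Hmga2 axis, measured 46.2, 57.1, 45.1 and 34.5 CPM in the 4 E10.5-induced libraries and 14.2, 21.7, 13.2 and 11.3 CPM in the 4 P0-induced libraries. Igf2bp2 fell (log2 fold change -1.58, SE 0.20, edgeR adjusted p = 9.15e-04), and wild type held 11.1 to 17.9 CPM.

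Ehd3, Dbn1 and Pde3b were also among the 12 largest falls. Ehd3, an ATPase of endocytic recycling, measured 35.7, 31.8, 41.3 and 27.9 CPM after E10.5 induction and 10.8, 8.53, 6.00 and 6.50 CPM after P0 induction (log2 fold change -2.09, SE 0.19, edgeR adjusted p = 2.12e-05). Dbn1, which codes for the actin-binding protein drebrin, measured 14.6, 14.4, 17.4 and 18.3 CPM after E10.5 induction and 3.48, 4.74, 2.52 and 3.88 CPM after P0 induction (log2 fold change -2.13, SE 0.20, edgeR adjusted p = 2.16e-05). Pde3b, a phosphodiesterase that breaks down cyclic AMP, measured 109.8, 109.6, 113 and 74.0 CPM after E10.5 induction and 34.6, 33.0, 36.7 and 30.5 CPM after P0 induction (log2 fold change -1.57, SE 0.12, edgeR adjusted p = 6.97e-06). In all 3 the groups stood apart, as the choice of these falls required, and for Pde3b E10.5-induced library 4 was the lowest of its group. Nsg2, a gene of vesicle traffic in neurons, fell by 1.91 on the log2 scale, Sulf2, an extracellular heparan sulfatase gene, by 1.56, and Fam169a by 2.22. Il9r, the interleukin 9 receptor gene, measured 33.6, 32.6, 36.4 and 39.5 CPM after E10.5 induction and 10.6, 13.4, 5.61 and 7.78 CPM after P0 induction (log2 fold change -1.91, SE 0.22, edgeR adjusted p = 4.98e-04), and the P0-induced libraries were still above wild type (0 to 3.20 CPM).

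**Figure D2:**
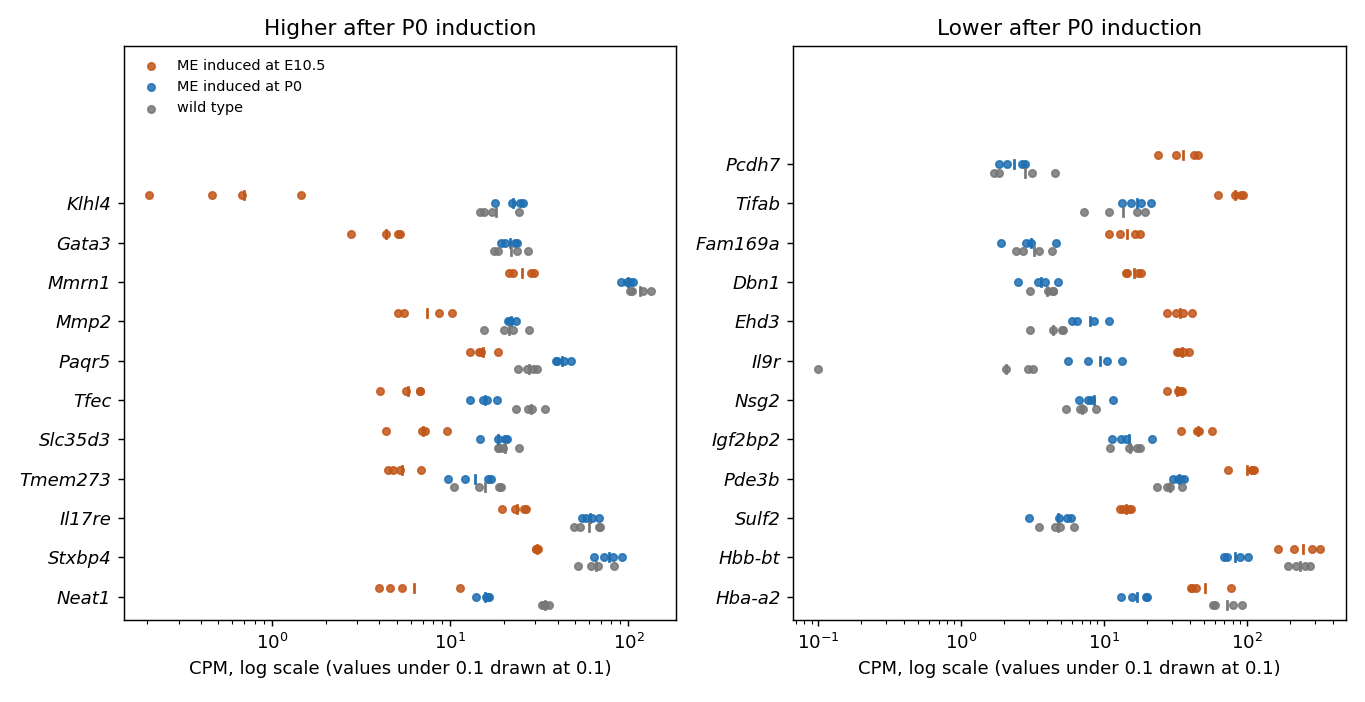
Levels of 11 of the 12 largest rises and of the 12 largest falls after P0 induction, as CPM on a log axis, in each of the 4 E10.5-induced, 4 P0-induced and 4 wild-type P28 libraries, with a bar at each mean. The genes were chosen among those whose E10.5-induced and P0-induced values do not overlap. The wild-type points of Gata3, Mmrn1, Klhl4, Pcdh7, Tifab and Pde3b lie beside the P0-induced ones.

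The promoter sequences of 4 of these genes are shown because the part of MLL kept in the fusion includes a domain that binds unmethylated CpG, and because they differ widely in CpG number. Each is the 250 bases before the 1 transcript start that the RefSeq table on GRCm38.p6 gives for the gene, on the gene's own strand, with every CpG in capitals. For Gata3, Mmrn1 and Pcdh7 that start lies inside the gene span given above, which covers all annotated transcripts. Gata3 (chr2:9878601-9878850, minus strand) holds 19 CpG, Mmrn1 (chr6:60944067-60944316, plus strand) 3, Pcdh7 (chr5:57717831-57718080, plus strand) 7 and Igf2bp2 (chr16:22163300-22163549, minus strand) 40.
Gata3: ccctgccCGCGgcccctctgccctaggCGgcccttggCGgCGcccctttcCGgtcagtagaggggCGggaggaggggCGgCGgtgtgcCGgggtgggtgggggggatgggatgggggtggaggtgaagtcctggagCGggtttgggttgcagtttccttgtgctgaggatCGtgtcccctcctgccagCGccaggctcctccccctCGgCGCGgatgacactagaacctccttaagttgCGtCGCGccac
Mmrn1: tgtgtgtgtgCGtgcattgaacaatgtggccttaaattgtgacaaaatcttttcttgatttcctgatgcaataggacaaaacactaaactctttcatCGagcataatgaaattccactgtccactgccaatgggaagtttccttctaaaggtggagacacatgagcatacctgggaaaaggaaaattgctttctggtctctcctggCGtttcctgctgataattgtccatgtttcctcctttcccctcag
Pcdh7: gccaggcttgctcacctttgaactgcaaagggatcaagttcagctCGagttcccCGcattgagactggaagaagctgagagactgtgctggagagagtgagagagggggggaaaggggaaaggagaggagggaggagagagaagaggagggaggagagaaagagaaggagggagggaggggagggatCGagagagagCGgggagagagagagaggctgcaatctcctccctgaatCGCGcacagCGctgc
Igf2bp2: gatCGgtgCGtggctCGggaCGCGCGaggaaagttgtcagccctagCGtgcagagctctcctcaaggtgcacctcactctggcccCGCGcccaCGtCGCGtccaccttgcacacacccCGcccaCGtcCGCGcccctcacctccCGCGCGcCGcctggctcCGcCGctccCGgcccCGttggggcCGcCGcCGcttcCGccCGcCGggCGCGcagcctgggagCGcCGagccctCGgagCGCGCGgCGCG

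Genes that rose and genes that fell thus each include CpG-poor and CpG-rich promoters. A promoter was counted as CpG-rich when more than 50% of the 250 bases were G or C and the CpG number was over 0.6 of that expected from its base composition. This held for 194 of 383 called-higher genes with a RefSeq promoter (50.7%), 333 of 485 called-lower genes (68.7%) and 6707 of 11384 genes tested (58.9%). Of all 32851 promoters in the RefSeq table, 10109 (30.8%) were CpG-rich. The GATA motif AGATAA, read on both strands, was in 28 (7.3%) of the called-higher promoters, 32 (6.6%) of the called-lower ones, 718 (6.3%) of those tested and 3281 (10.0%) of the whole table. These shares are descriptions, and a match of letters is not a binding site.

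Against wild type, most called genes stood on the P0-induced side. The wild-type mean on the log2 scale was nearer to the P0-induced than to the E10.5-induced mean for 920 of the 1147 called genes (80.2%), against 61.0% of all genes tested. The share was 88.0% (545 of 619) among genes lower after P0 induction and 71.0% (375 of 528) among genes higher. With 0 at the E10.5-induced mean and 1 at the P0-induced mean, wild type had a median position of 1.59 among lower genes and 0.84 among higher genes. Wild type thus lay beyond the P0-induced mean for 459 of the lower genes, so that P0 induction was between wild type and E10.5 induction, and for 211 of the higher ones. The wild-type libraries took no part in choosing the called genes, and no test was made of these shares. Each of the 11 genes called with all 24 libraries had wild type nearer to the P0-induced mean.

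**Figure D3:**
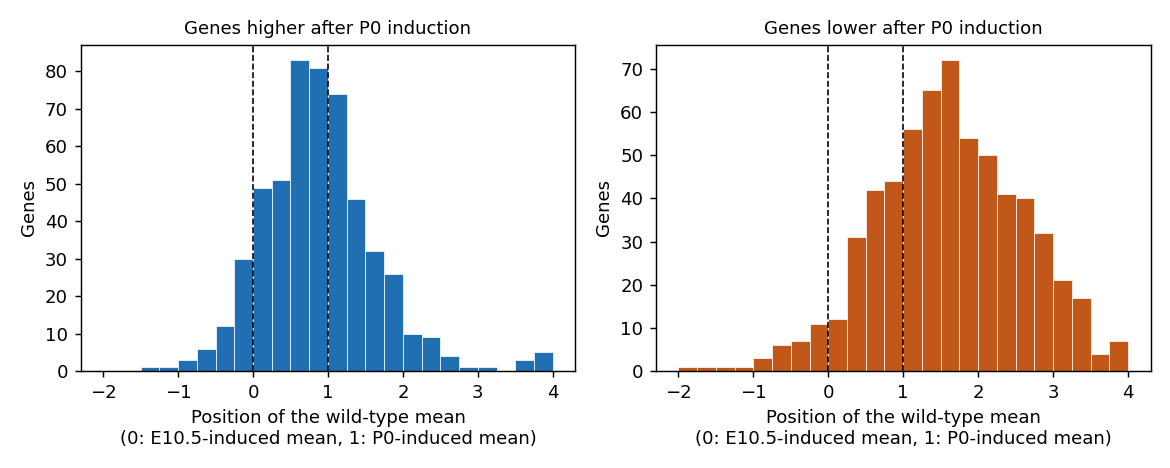
Where the mean of the 4 wild-type libraries lay for 528 genes higher (left) and 619 genes lower (right) after P0 induction; the horizontal axis is the position between the E10.5-induced mean (0) and the P0-induced mean (1) on the log2 CPM scale, with values outside -2 to 4 drawn in the end bins, and the vertical axis counts genes. Higher genes centre on 0.84 and lower genes on 1.59.

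Genes of DNA replication and of mitosis were lower after P0 induction than after E10.5 induction. Of 27 S phase genes, 17 fell and 0 rose, and all 27 had a negative log2 fold change, with a median of -0.436 against 0.017 over all genes tested. Of 26 mitosis genes, 16 fell and 0 rose, and all 26 were negative, with a median of -0.595. By direction the background is 3.43% lower and 2.92% higher. Mcm2, a subunit of the replicative helicase, measured 591, 613, 521 and 439.5 CPM in the 4 E10.5-induced libraries and 303, 332, 359.9 and 381 CPM in the 4 P0-induced libraries (log2 fold change -0.64, SE 0.10, edgeR adjusted p = 0.00317). The other helicase genes Mcm4 (-0.50) and Mcm6 (-0.50) and the histone chaperone gene Chaf1a (-0.74) fell with it, as log2 fold changes. Ccnb1, the gene for the mitotic cyclin B1, measured 194, 229.9, 198 and 167 CPM in the 4 E10.5-induced libraries and 103, 110.5, 127 and 139 CPM in the 4 P0-induced libraries (log2 fold change -0.70, SE 0.11, edgeR adjusted p = 0.00230), and no library of the groups overlapped. The mitotic kinase genes Aurka (-0.76) and Cdk1 (-0.55, called in 7 of the 8 fits) and the anaphase activator gene Cdc20 (-0.65) also fell. Mki67, a widely used proliferation marker, was not called (log2 fold change -0.37, SE 0.11, edgeR adjusted p = 0.0620).

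Summed over the list, S phase genes took 7736, 8189, 6992 and 6017 CPM in the E10.5-induced libraries and 4550, 4826, 5437 and 5726 CPM in the P0-induced ones. Wild type took 3580 to 4658 CPM. Mitosis genes summed to 5053, 5401, 4239 and 4249 CPM after E10.5 induction, 2605, 2488, 3678 and 3730 CPM after P0 induction and 2259 to 3017 CPM in wild type. Both sums kept the induction groups apart, with P0 induction between E10.5 induction and wild type in the mean. The number of called genes depended on the fit. In the fit of all 24 libraries edgeR called 0 genes of either list, with 15 S phase and 23 mitosis genes at an unadjusted p under 0.05. In the 8 libraries DESeq2 called 21 and 24, and limma called 21 and 21. Without P0-induced library 1 edgeR called 5 S phase and 5 mitosis genes. The counts were 6 and 5 without E10.5-induced library 1, 7 and 8 without E10.5-induced library 2 and 7 and 9 without P0-induced library 2. Without P0-induced library 3 they were 10 and 17. In bulk libraries more dividing cells and more RNA per dividing cell cannot be told apart.

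**Figure D4:**
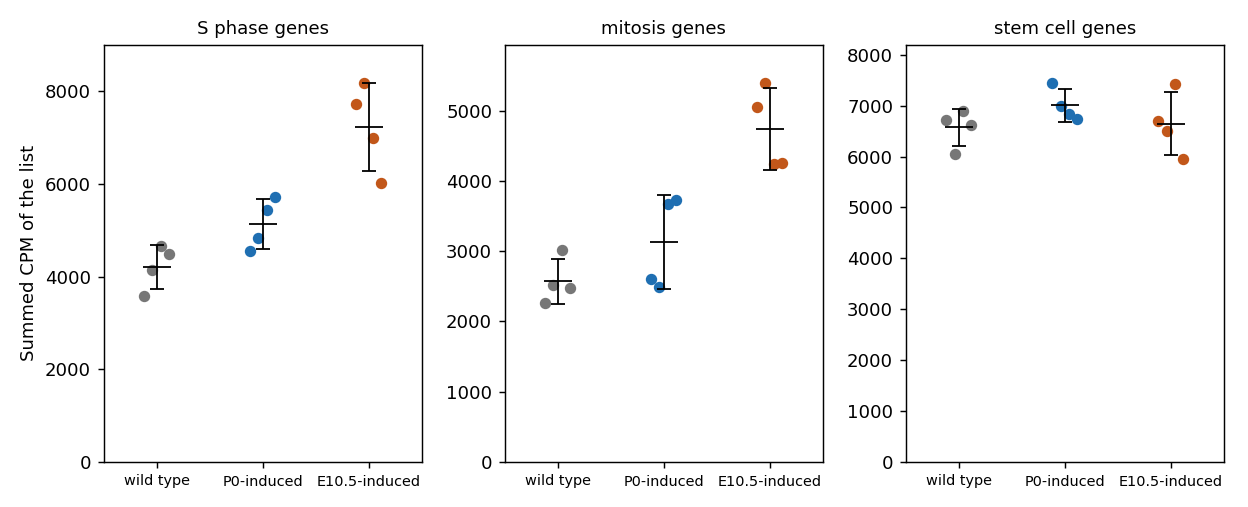
Summed CPM of 3 gene lists in each library of wild type, P0-induced ME and E10.5-induced ME at P28, with the mean and SD of 4 libraries. S phase and mitosis sums are highest in the E10.5-induced libraries, at 6017 to 8189 and 4239 to 5401 CPM, while the sums of stem cell genes overlap between the groups.

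Some genes of DNA methylation and of the nuclear pore were lower after P0 induction too. Of 15 DNA methylation genes, 3 fell and 0 rose: the de novo methyltransferase gene Dnmt3b (log2 fold change -0.50, SE 0.08, edgeR adjusted p = 0.00230), the maintenance methyltransferase gene Dnmt1 (log2 fold change -0.64, SE 0.15, edgeR adjusted p = 0.0305) and its partner Uhrf1 (log2 fold change -0.65, SE 0.14, edgeR adjusted p = 0.0242), which is also in the S phase list. Dnmt1 and Uhrf1 kept their calls in 3 and 3 of the 8 fits without 1 library. Of 27 nuclear pore genes, 9 fell and 0 rose, and 26 were negative, led by Nup50 (log2 fold change -0.46, SE 0.08, edgeR adjusted p = 0.00341). Of these 9 calls, 1 held in all 8 fits without 1 library. Among 30 genes of Myc and of ribosome assembly, 4 fell and 0 rose, and all 30 were negative, with a median of -0.214. With plain library totals 3 of these 30 were positive and 2 fell. Myc itself, the transcription factor of cell growth, measured 589.9, 544, 634 and 788 CPM in the 4 E10.5-induced libraries and 429, 468, 449 and 523 CPM in the 4 P0-induced libraries (log2 fold change -0.44, SE 0.11, edgeR adjusted p = 0.0276, called in 4 of the 8 fits). Histone genes, a list by name that includes the replication-independent H1f10, gave 2 falls and 0 rises among 46 (4.3%, against 3.43% lower over all genes tested).

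Stem cell genes as a list did not move 1 way. Of 30 genes, 4 rose and 0 fell (13.3% called, against 6.35% of all genes tested). Of the 30, 17 were positive, and the median log2 fold change was 0.032, against 0.017 over all genes tested. The 4 were Mllt3, the gene for the ENL paralogue AF9, which supports stem cell renewal (log2 fold change 0.88, SE 0.11, edgeR adjusted p = 5.04e-04), Procr, a surface marker of stem cells (log2 fold change 0.66, SE 0.10, edgeR adjusted p = 0.00130), Hlf, a transcription factor of stem cells (log2 fold change 0.47, SE 0.08, edgeR adjusted p = 0.00346), and the adhesion gene Esam (log2 fold change 0.39, SE 0.11, edgeR adjusted p = 0.0453, called in 1 of the 8 fits). Hlf measured 505, 583, 514 and 519 CPM in the 4 E10.5-induced libraries and 799, 761, 691 and 665 CPM in the 4 P0-induced libraries. Its groups stood apart, and wild type (511 to 642 CPM) lay below the P0-induced libraries. Procr measured 53.1, 51.4, 45.0 and 48.0 CPM in the 4 E10.5-induced libraries and 79.5, 88.4, 68.9 and 73.4 CPM in the 4 P0-induced libraries. Only the P0-induced libraries at 79.5 and 88.4 CPM lay in the wild-type range (77.8 to 97.5 CPM), and all others were below it. With RLE scaling factors 3 rose and 1 fell.

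Fetal stem cell genes were lower after P0 induction where they were called. Of 16 tested, 4 fell and 0 rose, 13 were negative, and the median was -0.691. Besides Igf2bp2, these were Lin28b, the RNA-binding regulator of fetal haematopoiesis, and the imprinted genes Peg3 and Dlk1. Lin28b measured 5.55, 5.44, 3.77 and 2.86 CPM in the 4 E10.5-induced libraries and 1.55, 1.56, 0.876 and 1.22 CPM in the 4 P0-induced libraries (log2 fold change -1.75, SE 0.29, edgeR adjusted p = 0.00390). The groups did not overlap, at levels of a few CPM, and wild type held 1.68 to 3.83 CPM, above the P0-induced group in each library. Peg3 (log2 fold change -2.63, SE 0.66, edgeR adjusted p = 0.0329) and Dlk1 (log2 fold change -0.84, SE 0.22, edgeR adjusted p = 0.0333) held their calls in 4 and 2 of the 8 fits. The other members of the Lin28b axis were not called, with log2 fold changes of -0.05 for Hmga2 (edgeR adjusted p = 0.871) and 0.47 for Igf2bp3 (edgeR adjusted p = 0.210).

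Genes known to be raised by MLL fusions were called in both directions. Of 25 tested, 4 rose and 2 fell (24.0% called, against 6.35% of all genes tested), 12 were positive, and the median was -0.005. The rises numbered 2 with RLE scaling factors and 6 with plain library totals, and the falls 2 with both. Eya1, a transcriptional coactivator, measured 47.5 ± 5.92 CPM after E10.5 induction and 80.5 ± 8.44 CPM after P0 induction (SD, n = 4) (log2 fold change 0.78, SE 0.10, edgeR adjusted p = 7.23e-04). The P0-induced libraries were the higher ones and wild type held 48.2 to 67.2 CPM. Cdk6, the G1 kinase gene (log2 fold change 0.53, SE 0.13, edgeR adjusted p = 0.0319), the homeobox gene Meis1 (log2 fold change 0.27, SE 0.07, edgeR adjusted p = 0.0425) and Runx2 (log2 fold change 0.30, SE 0.09, edgeR adjusted p = 0.0488) rose too, and held their calls in 2, 1 and 1 of the 8 fits. Hoxa5 measured 23.8, 20.5, 25.9 and 24.1 CPM in the 4 E10.5-induced libraries and 11.8, 13.5, 12.3 and 12.5 CPM in the 4 P0-induced libraries and fell (log2 fold change -0.90, SE 0.12, edgeR adjusted p = 8.37e-04). Mecom, which codes for the stem cell factor EVI1, measured 312, 303, 302 and 260.3 CPM in the 4 E10.5-induced libraries and 245, 243, 212 and 187 CPM in the 4 P0-induced libraries. It fell (log2 fold change -0.39, SE 0.09, edgeR adjusted p = 0.0213, called in 5 of the 8 fits) and was above wild type (91.4 to 124 CPM) in both groups. Hoxa9, the best known target, measured 178, 163, 166 and 194 CPM in the 4 E10.5-induced libraries and 179, 184, 167 and 162 CPM in the 4 P0-induced libraries, and its groups overlapped (log2 fold change 0.00, SE 0.08, edgeR adjusted p = 0.981). Hoxa10 was not called either (log2 fold change -0.15, SE 0.09, edgeR adjusted p = 0.353), and both groups were above wild type for Hoxa9 (115 to 142 CPM) and Hoxa10 (69.5 to 87.8 CPM). Over the clusters, 2 of 8 Hoxa genes fell, Hoxa5 and the low-level Hoxa2 (log2 fold change -1.20, SE 0.31, edgeR adjusted p = 0.0342, called in 2 of the 8 fits). Of 5 Hoxb genes, Hoxb4 rose (log2 fold change 1.20, SE 0.31, edgeR adjusted p = 0.0332, called in 2 of the 8 fits) at levels near 1 CPM.

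The mouse genes of the fusion partners and their relatives were examined as well. Kmt2a (ENSMUSG00000002028, chromosome 9, 44803355 to 44881296) measured 54.8, 52.4, 57.6 and 56.9 CPM in the 4 E10.5-induced libraries and 96.4, 95.6, 108 and 96.7 CPM in the 4 P0-induced libraries. The P0-induced libraries were the higher ones without overlap (log2 fold change 0.85, SE 0.08, edgeR adjusted p = 2.12e-05), the E10.5-induced ones lay between them and wild type (35.4 to 48.8 CPM), and the adjusted p was 0.102 with all 24 libraries. The human transgene has no entry of its own in this mouse gene table. Reads of its MLL part that match the mouse gene cannot be told apart from reads of Kmt2a. The same holds for any reads of its ENL part that match Mllt1. Mllt1, the mouse ENL gene, measured 133 ± 8.24 CPM after E10.5 induction and 109.9 ± 11.0 CPM after P0 induction (SD, n = 4) and was not called (log2 fold change -0.26, SE 0.08, edgeR adjusted p = 0.0712). Kmt2c, which codes for MLL3, measured 44.0, 33.7, 47.9 and 33.7 CPM after E10.5 induction and 54.5, 51.6, 51.0 and 41.5 CPM after P0 induction. The groups overlapped and it was not called (log2 fold change 0.33, SE 0.12, edgeR adjusted p = 0.123). Of 9 genes of the MLL3 and MLL4 complexes, 1 rose and 0 fell (11.1% called, against 6.35% of all genes tested). This was Kmt2d, the gene for MLL4, with 23.0, 25.9, 34.5 and 29.9 CPM after E10.5 induction and 50.6, 44.7, 47.6 and 35.8 CPM after P0 induction (log2 fold change 0.67, SE 0.13, edgeR adjusted p = 0.0113, called in 7 of the 8 fits). Kdm6a, the X-linked demethylase gene of these complexes, was not called (log2 fold change -0.27, SE 0.18, edgeR adjusted p = 0.416) and was highest in E10.5-induced library 3, the 1 with Xist RNA, at 125 CPM. Of 12 genes of the other MLL and SET1 complexes, Kmt2a alone was called (8.3%, near the 6.35% of all genes tested). Of 24 ENL partner and elongation genes, Mllt3 and Ell2 (log2 fold change 0.53, SE 0.13, edgeR adjusted p = 0.0255, called in 5 of the 8 fits) rose, and Ctr9, a subunit of the PAF1 complex, fell (log2 fold change -0.69, SE 0.08, edgeR adjusted p = 3.49e-04). Ctr9 measured 300.0, 269, 328 and 267 CPM after E10.5 induction and 172, 169, 200.2 and 175 CPM after P0 induction, with both groups above wild type (78.4 to 117 CPM). Of 33 Polycomb genes, 2 rose (Phf1, 0.72, and Cbx8, 0.49) and 2 fell (Cbx2, -0.41, and Rbbp7, -0.30), as log2 fold changes. Cbx8 kept its call in 2, Cbx2 in 6 and Rbbp7 in 3 of the 8 fits. Called shares were 12.5% of the ENL partner and elongation list and 12.1% of the Polycomb list, against the same 6.35%.

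Lineage genes moved in different directions in different lineages. Of 25 early lymphoid genes, 6 rose and 1 fell, against backgrounds of 2.92% and 3.43%. The rises included Cd79a (log2 fold change 1.51, SE 0.27, edgeR adjusted p = 0.00596), Igll1 (log2 fold change 1.84, SE 0.39, edgeR adjusted p = 0.0138), Ly6d (log2 fold change 1.83, SE 0.40, edgeR adjusted p = 0.0166), Ebf1 (log2 fold change 1.29, SE 0.34, edgeR adjusted p = 0.0365) and Ccr9 (log2 fold change 0.91, SE 0.24, edgeR adjusted p = 0.0362). Ly6d held its call in 6 of the 8 fits, Ebf1 in 2 and Ccr9 in 2. The B-cell receptor component Cd79a measured 1.61, 1.38, 1.51 and 1.91 CPM after E10.5 induction and 2.56, 5.60, 4.68 and 5.20 CPM after P0 induction. The chemokine receptor gene Ccr9 was the most abundant of these, at 9.84, 6.48, 6.23 and 10.8 CPM after E10.5 induction and 16.0, 9.70, 20.0 and 16.3 CPM after P0 induction. Summed over the early lymphoid list, the E10.5-induced libraries took 1654 to 2219 CPM and the P0-induced ones 1260 to 1556 CPM, so that the sum was lower where more members were called higher. With plain library totals 7 rose and 0 fell.

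Of 12 T-lineage genes, Gata3, Rora (log2 fold change 0.79, SE 0.16, edgeR adjusted p = 0.0132, called in 7 of the 8 fits) and Cd4 (log2 fold change 0.86, SE 0.18, edgeR adjusted p = 0.0133) rose and Tox (log2 fold change -0.63, SE 0.12, edgeR adjusted p = 0.00698) fell. Of 23 megakaryocyte and platelet genes, 5 rose and 0 fell: Mmrn1, the thrombin receptor gene F2rl2 (log2 fold change 1.06, SE 0.20, edgeR adjusted p = 0.00832), Nrgn (log2 fold change 0.33, SE 0.08, edgeR adjusted p = 0.0200), the granule transport gene Rab27b (log2 fold change 0.85, SE 0.21, edgeR adjusted p = 0.0275) and the platelet chemokine gene Pf4 (log2 fold change 0.68, SE 0.18, edgeR adjusted p = 0.0392). Nrgn kept its call in 5, Rab27b in 4 and Pf4 in 3 of the 8 fits. The summed level of this list overlapped between the groups, at 1747 to 2188 CPM after E10.5 induction and 1848 to 2013 CPM after P0 induction. Of 26 neutrophil and monocyte progenitor genes, Gfi1, a repressor of myeloid and stem cells, rose (log2 fold change 0.46, SE 0.09, edgeR adjusted p = 0.0120, called in 7 of the 8 fits), and 0 fell. In this list 3.8% were called, against 6.35% of all genes tested, and 5 of the 26 were positive, with a median of -0.391. Its sum was 1757 to 2757 CPM after E10.5 induction and 1522 to 2069 CPM after P0 induction, which overlap, and 1747 to 2091 CPM in wild type.

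Of 23 erythroid genes, 5 fell and 1 rose (26.1% called, against 6.35% of all genes tested), while 10 were positive. The falls were globin genes and Alas2. Near-identical globin copies may share reads, so their calls may not be separate. The summed level of the list overlapped between the groups, at 2570 to 2982 CPM after E10.5 induction and 2343 to 3359 CPM after P0 induction. Hbb-bt, an adult beta-globin gene, measured 286, 329, 216 and 166 CPM in the 4 E10.5-induced libraries and 89.7, 102, 73.2 and 69.1 CPM in the 4 P0-induced libraries (log2 fold change -1.56, SE 0.22, edgeR adjusted p = 0.00887). Hba-a2, an adult alpha-globin gene, measured 40.9, 77.3, 41.6 and 44.0 CPM in the 4 E10.5-induced libraries and 15.7, 13.3, 19.6 and 20.1 CPM in the 4 P0-induced libraries (log2 fold change -1.55, SE 0.22, edgeR adjusted p = 0.00353), with E10.5-induced library 2 the highest. Alas2, the erythroid enzyme that starts haem synthesis, measured 4.59, 10.9, 6.78 and 6.00 CPM after E10.5 induction and 2.42, 2.20, 1.89 and 2.17 CPM after P0 induction (log2 fold change -1.69, SE 0.26, edgeR adjusted p = 0.00219). The 4 P0-induced libraries were below all E10.5-induced libraries for these genes, and below wild type, which held 196 to 278 CPM of Hbb-bt and 58.3 to 93.2 CPM of Hba-a2. The near-identical globin genes Hba-a1 (log2 fold change -1.52, SE 0.27, edgeR adjusted p = 0.0197, called in 6 of the 8 fits) and Hbb-bs (log2 fold change -1.42, SE 0.27, edgeR adjusted p = 0.0261, called in 4 of the 8 fits) fell with them. How reads shared by such copies were divided is not given in the sources used here, so the split among copies is uncertain. Globin reads were 0.0367% to 0.0680% of counts after E10.5 induction and 0.0168% to 0.0181% after P0 induction. The carbonic anhydrase gene Car2 was the rise (log2 fold change 0.43, SE 0.09, edgeR adjusted p = 0.0146, called in 5 of the 8 fits). The part of red cell carry-over in the globin values was not tested.

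The alpha-globin cluster lies on chromosome 11 beside 2 other genes that fell. Il9r starts this stretch at 32187541, Rhbdf1 lies at 32209585 to 32222300, and Hba-a1 and Hba-a2 follow from 32283511. Rhbdf1, which codes for an inactive rhomboid protein, measured 37.2, 35.9, 40.9 and 34.1 CPM in the 4 E10.5-induced libraries and 18.2, 21.6, 13.2 and 11.1 CPM in the 4 P0-induced libraries and fell without overlap (log2 fold change -1.19, SE 0.17, edgeR adjusted p = 0.00185). Both induction groups were above most wild-type libraries (5.09 to 12.5 CPM). Between these genes Snrnp25 (log2 fold change -0.28, edgeR adjusted p = 0.0531), Mpg (-0.21, edgeR adjusted p = 0.424) and Nprl3 (0.08, edgeR adjusted p = 0.711), whose introns hold the alpha-globin enhancers, were not called. Nsg2 is the tested protein-coding gene before Il9r, 128339 bases away. Of the 46 neighbouring positions of the protein-coding genes among the 24 largest changes, 33 held a gene that was not called and 12 one called in the same direction. The other was Dach2, next to Klhl4, which fell (log2 fold change -0.98, edgeR adjusted p = 0.0289). Over all genes tested 6.35% were called. The positions are not all separate, since the pair of Il9r and Nsg2 is counted from both sides. They also include Hba-a1 beside Hba-a2 and Hbb-bs beside Hbb-bt, near-identical copies that may share reads. Among those called alike, Stxbp4 lies 85597 bases from Hlf, and both rose. Il17re lies 669 bases from Il17rc, which rose as well (log2 fold change 1.52, edgeR adjusted p = 0.0483). Whether the strand of reads was used in counting is not given, so reads of genes that close may be shared.

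Markers of other cells that a sort could carry were counted against the 6.35% called over all genes tested. Mast cell and basophil genes gave 0 calls among 16 with edgeR, 2 at an unadjusted p under 0.05, 2 with DESeq2 and 1 with limma. Macrophage genes gave 0 calls among 20 with edgeR, 1 at an unadjusted p under 0.05 and 0 with DESeq2 or limma. Of 16 stromal and endothelial genes, 3 rose and 1 fell, a larger share than over all genes. Emcn, endomucin of vessels and stem cells, measured 30.6, 33.0, 35.6 and 34.8 CPM after E10.5 induction and 51.7, 47.4, 48.5 and 46.4 CPM after P0 induction (log2 fold change 0.55, SE 0.09, edgeR adjusted p = 0.00317). Pdgfrb (log2 fold change 0.90, SE 0.18, edgeR adjusted p = 0.0132) and the tight junction gene Cldn5 (log2 fold change 2.17, SE 0.45, edgeR adjusted p = 0.0138, called in 6 of the 8 fits) rose as well. Col6a1, a collagen gene, was listed at 0 in 3 of the 4 P0-induced libraries and held 0.825, 0.440, 1.44 and 0.454 CPM in the E10.5-induced ones (edgeR adjusted p = 0.00212). Summed, this list took 369.3 to 506.1 CPM after E10.5 induction and 407.8 to 425.8 CPM after P0 induction. The part of these cells in the results was not tested.

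Called genes of antigen presentation and innate signalling were higher after P0 induction, apart from Tifab. Of 14 MHC class II genes, 4 rose and 0 fell, and 12 were positive. H2-Ab1 measured 22.4, 18.8, 25.4 and 31.5 CPM in the 4 E10.5-induced libraries and 52.2, 38.8, 39.6 and 46.2 CPM in the 4 P0-induced libraries (log2 fold change 0.86, SE 0.15, edgeR adjusted p = 0.00563), without overlap and with wild type at 40.5 to 74.3 CPM. H2-Eb1 (log2 fold change 1.13, SE 0.22, edgeR adjusted p = 0.00958), H2-Aa (log2 fold change 1.05, SE 0.21, edgeR adjusted p = 0.0132, called in 7 of the 8 fits) and H2-DMb2 (log2 fold change 0.72, SE 0.16, edgeR adjusted p = 0.0160, called in 7 of the 8 fits) were the others. E10.5-induced library 4 was the highest of its group for the first 3 genes. Of 17 MHC class I genes, H2-Q4 rose (log2 fold change 0.56, SE 0.13, edgeR adjusted p = 0.0201, called in 5 of the 8 fits), and the reads of such paralogues may be shared. This is 5.9% of the list, against 6.35% of all genes tested. Of 33 innate adaptor and NF-kB genes, 5 rose and 1 fell. The fall was Tifab, and the rises were the chemokine gene Ccl4 (log2 fold change 1.18, SE 0.17, edgeR adjusted p = 0.00190), the adaptor gene Tirap (0.71), the kinase gene Irak2 (0.44) and the NF-kB regulator genes Nfkbiz (1.05) and Nfkbid (1.02). Ccl4 measured 12.3, 8.12, 12.0 and 15.9 CPM after E10.5 induction and 29.5, 25.9, 28.4 and 24.0 CPM after P0 induction, and its call was the 1 among these 5 rises that held in all 8 fits. Tirap kept its call in 5 and Nfkbiz in 3 of these fits. Type I interferon response genes gave 0 calls among 34 with edgeR, 5 at an unadjusted p under 0.05, 1 with DESeq2 and 0 with limma.

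Cytokine sensing gave calls in both directions. Of 39 cytokine receptor genes, 3 rose and 4 fell (17.9% called, against 6.35% of all genes tested). The falls were Il9r, Tgfbr1 (log2 fold change -0.35, SE 0.07, edgeR adjusted p = 0.0131), the growth factor receptor gene Met (log2 fold change -0.72, SE 0.18, edgeR adjusted p = 0.0282, called in 2 of the 8 fits) and Il17ra (log2 fold change -0.29, SE 0.08, edgeR adjusted p = 0.0495, called in 1 of the 8 fits). The rises were Il11ra1 (0.56), Csf2ra (0.53) and Crlf2 (0.28), as log2 fold changes, called in 6, 4 and 1 of the 8 fits. Among 22 SOCS and JAK-STAT genes, the feedback inhibitor genes Socs2 (log2 fold change 0.73, SE 0.14, edgeR adjusted p = 0.0117) and Socs1 (log2 fold change 0.53, SE 0.15, edgeR adjusted p = 0.0441, called in 2 of the 8 fits) rose. Socs2 measured 38.7, 48.4, 31.5 and 33.0 CPM in the 4 E10.5-induced libraries and 48.8, 65.9, 70.9 and 63.4 CPM in the 4 P0-induced libraries, so the highest E10.5-induced and the lowest P0-induced library lay side by side. Immediate early genes gave 2 rises, Ier5 (0.43) and Dusp2 (0.28), and 2 falls, Jun (-0.81) and Myc, among 28. Ier5 kept its call in 2, Dusp2 in 3 and Jun in 6 of the 8 fits. Called shares were 9.1% of the SOCS and JAK-STAT list, near the share over all genes, and 14.3% of the immediate early list.

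In homing and adhesion, 4 of 30 genes rose and 2 fell. Besides Mmrn1, Esam and Pcdh7, the calls included S1pr1, the receptor that guides exit from tissues (log2 fold change 0.71, SE 0.14, edgeR adjusted p = 0.0115), and the junction gene Jam2 (log2 fold change 1.35, SE 0.34, edgeR adjusted p = 0.0294, called in 3 of the 8 fits). Pcdh7 was the 1 of 29 protocadherin genes that was called (3.4%, against 6.35% of all genes tested). Ehd3 and Ehd1 (log2 fold change -0.33, SE 0.09, edgeR adjusted p = 0.0435, called in 3 of the 8 fits) fell among 21 genes of endocytic recycling.

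The other lists were of survival, metabolism and RNA classes. Over all genes tested 2.92% rose and 3.43% fell, and several of these lists were near those shares. Among 24 p53 target genes Gtse1, which is also a gene of dividing cells, fell (log2 fold change -0.79, SE 0.14, edgeR adjusted p = 0.00563), and 0 rose (4.2% called). Genes of the BCL2 family gave 0 calls among 16 with edgeR, 3 at an unadjusted p under 0.05, 2 with DESeq2 and 1 with limma. Of 24 cholesterol synthesis genes, 2 fell (8.3%), among them Idi1 (-0.54, called in 2 of the 8 fits), and 0 rose. All 13 protein genes of the mitochondrial genome were positive, with a median of 0.338 against 0.017 over all genes tested, and 3 rose, 2 with RLE scaling factors and 6 with plain totals. Mitochondrial reads were 0.371% to 0.520% of counts after E10.5 induction and 0.5003% to 0.623% after P0 induction. Of 82 cytosolic ribosomal protein genes 76 were positive and 6 rose, 3 with RLE factors and 13 with plain totals, with a median of 0.14 on the log2 scale. Of 82 nuclear genes of the respiratory chain, 2 fell and 0 rose (2.4% called, against 6.35% of all genes tested). Nuclear long noncoding RNAs gave 3 rises and 0 falls among 22, Neat1, Snhg12 (1.04) and Snhg1 (0.78), and 19 were positive, with a median of 0.522. Snhg12 and Snhg1 each kept the call in 1 of the 8 fits. The rises of this list numbered 2 with RLE factors and 5 with plain totals. Malat1 was not called (log2 fold change 0.37, SE 0.22, edgeR adjusted p = 0.383). By annotated type, 20 of 443 lincRNAs rose and 6 fell, while 457 of 13394 protein-coding genes rose and 605 fell.

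**Figure D5:**
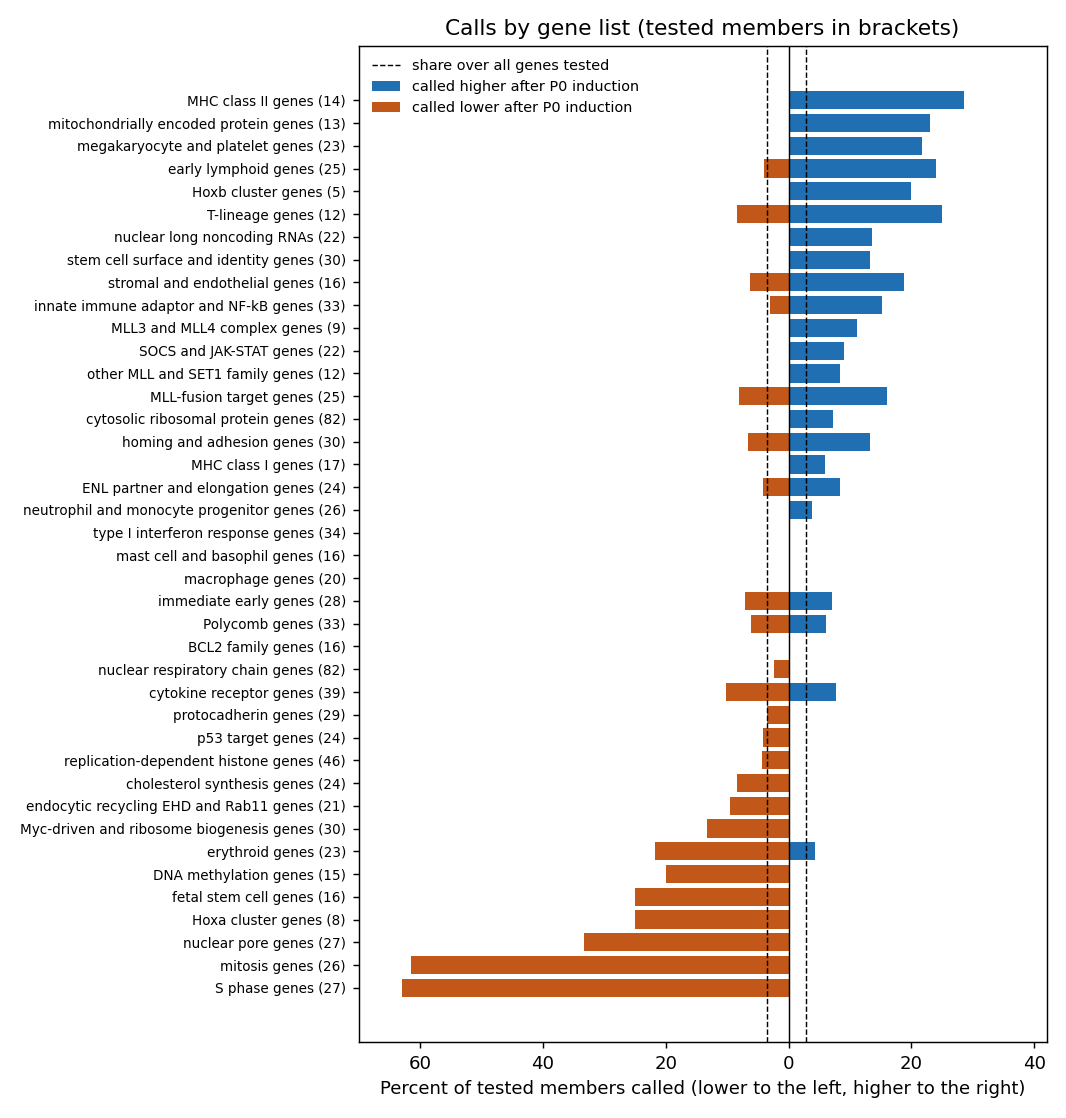
Share of the tested members of 40 gene lists called higher (right) or lower (left) after P0 induction, with the number tested in brackets and dashed lines at the share over all genes tested (2.92% higher, 3.43% lower). The bars of S phase (17 of 27) and mitosis genes (16 of 26) reach farthest to the left, and MHC class II genes (4 of 14) farthest to the right.

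The newborn libraries of the series give a reading of ME in libraries outside this comparison, though from a fit that includes its libraries. In newborn liver LSK cells, 4 libraries with ME induced at E10.5 were compared with 4 wild-type libraries, an addition made after the data were seen. In the fit of all 24 libraries 148 of 23059 genes (0.642%) were called there. Of these, 145 were tested in the P28 comparison and 39 (26.9%) were called in it, against 6.35% of all genes tested. The P28 libraries compared here also entered the gene filter, scaling and spread estimates of that fit. The newborn calls and the P28 calls are therefore not independent. These shares were not matched for the level or spread of the genes. Of 81 genes raised by ME at birth, 12 were lower and 4 higher after P0 induction at P28. Of 64 genes lowered by ME at birth, 21 were higher and 2 were lower after P0 induction. In all, 33 of the 39 had opposite signs, so for these 33 genes the E10.5-induced side at P28 was the side of newborn ME. Over all called genes the tilt was small. ME was above wild type at birth for 329 of the 619 genes lower after P0 induction (53.2%) and for 211 of the 528 higher ones (40.0%), against 48.2% of all genes tested.

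Among the genes raised at birth, Pcdh7 held 17.3 to 30.3 CPM in newborn wild type and 76.2 to 161 CPM in newborn ME (log2 fold change 2.28 at birth, against -3.91 between the induction times at P28). Pde3b (1.60 against -1.57), Fam169a (2.44 against -2.22), Rhbdf1 (3.04 against -1.19), Dbn1 (1.66 against -2.13) and Tifab (1.26 against -2.25) had the same pattern. Gata3, with 9.57 to 19.2 CPM in newborn wild type and 1.91 to 5.67 CPM in newborn ME, was lowered at birth (-2.01 against 2.32), as were Mmrn1 (-1.51 against 1.98), Socs2 (-2.10 against 0.73), C1qtnf6 (-1.83 against 2.20) and Ptger3, a prostaglandin E2 receptor gene (-1.34 against 1.31). Kmt2a was an exception, raised at birth (1.74) and higher after P0 induction at P28 (0.85). Hoxa9 and Hoxa10 were raised at birth (1.03 and 1.54) and not called between the induction times. Liver and marrow differ as tissues, and the newborn libraries had a spread of 57.8% to 69%.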

How the data were processed

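The authors deposited raw read counts per Ensembl gene in 1 table, with a column for each of the 24 libraries. Per the labels' protocols, RNA came from a Qiagen RNeasy Plus kit and libraries from Clontech chemistry. STAR 2.7.9a, Subread featureCounts 2.0.3 and GRCm38 are named in the submitters' processing notes, while the annotation, strand and multiple-match settings are not given in the sources used here. Of 55774 entries, 287 identical repeats were dropped. GENCODE M21 gave symbols and coordinates for 55227 of 55487 IDs.

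Genes of the 8 libraries passing filterByExpr (minimum count 10) received TMM factors and entered the edgeR 4.0.16 robust quasi-likelihood model in R 4.3.3, with 6 residual degrees of freedom and Benjamini-Hochberg adjustment over 18067 genes. Log2 fold changes are P0-induced minus E10.5-induced. CPM uses TMM factors of all 24 libraries, and 3 counts are 0.0373 to 0.0698 CPM in these 8. Genes named by rule are 5 checks, the 12 largest rises and falls among called genes without overlap whose log2 CPM averaged 3 or more, and up to 4 per list over 41 lists. Predicted genes, pseudogenes, immunoglobulin, T-cell receptor and sex genes stood outside the rises and falls. Others, among them Meis1, Runx2, Ccr9, Ebf1, Pf4, Rhbdf1, Hoxa9, Hoxa10, Mki67, Ptger3 and C1qtnf6, were named after their values were seen. Some genes that these rules select are not reported here. The members and lists were chosen with earlier results of these data known. Alternatives used DESeq2 1.42.0 and limma 3.58.1. In simulated data for this comparison over 18067 genes, 35 of 67 genes changed 1.5-fold, 59 of 67 changed 2-fold, 65 of 66 changed 4-fold and 6 of 17867 unchanged genes were called. Figures used matplotlib 3.10.9.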

Additional observations from a re-analysis of the deposited data

Results flagged for a closer look

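In a group of 4 libraries, 1 library stood far from the other 3 in 24 of 303 gene and group pairs examined by Dixon's criterion, the gap to the nearest library over the whole range, where chance gives about 1 in 20. Each value is that library's CPM.

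E10.5-induced library 4 was lowest for Pde3b (74.0), Met (8.16), Nup62 (228) and Igf2bp3 (7.68), and highest for H2-Eb1 (13.0) and Snhg12 (5.41). E10.5-induced library 2 was highest for Hba-a2 (77.3), Hbb-bs (173) and mt-Nd3 (9.87). E10.5-induced library 3 was highest for Esam (43.1), Ptger3 (22.9) and Kdm6a (125), and library 1 for Ly6d (0.644). Among the P0-induced libraries, library 4 was highest for Peg3 (0.610) and Rbbp7 (841) and lowest for Hmga2 (29.6) and Slamf1 (3.84). P0-induced library 3 was highest for Kmt2a (108) and lowest for Cldn5 (1.71) and Uqcrc1 (398). P0-induced library 2 was highest for Jam2 (3.29), Snhg12 (7.66) and Irak2 (28.6), and library 1 was lowest for Hoxb4 (1.57).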

How the results depend on the processing

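None of the 134 named genes that were called changed sign in any alternative in which it was tested. The alternatives reuse all or most of the same 8 libraries, so a kept sign is no separate support. Called genes numbered 1147 with the 8 libraries fitted alone, 1161 with RLE factors, 1211 with plain totals, 1274 with a filter of 50 counts, 1445 with offsets for GC content and length, and 866 with a replicate block. It was 11 with all 24 libraries, 2186 with DESeq2, 2215 with limma quality weights, 2042 without a filter on low counts, 227 at an adjusted p under 0.01, 355 with the 12 P28 libraries of the induction groups and wild type (chosen after seeing the data), and 335 to 1974 without 1 library. The number of called genes with wild type nearer to P0 induction, 920, was in the same order 11 with all 24 libraries, 1698 with DESeq2, 1724 with limma, 1544 without a filter, 188 at the stricter threshold, 298 with 12 libraries and 268 to 1603 without 1 library. S phase falls, 17, were 0 with all 24 libraries, 9 with the replicate block, 4 at the stricter threshold, 10 with 12 libraries and 5 to 19 without 1 library. Mitosis falls, 16, were 0, 5 and 2 with the first 3 of these settings and 5 to 17 without 1 library.

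Same-numbered libraries of the 2 groups showed no clear shared deviation (correlations of -0.162, 0.084, -0.023 and -0.037). Libraries of unlike number gave -0.098 to 0.135. Such values cannot show whether same-numbered libraries shared a litter, a sort or a preparation. With the replicate block 26 of 134 named calls were lost, and 123 with all 24 libraries. A term for sex was not run, since 1 library in 1 group alone has the female pattern. Changes under 1.5-fold may go uncalled at this depth and number of libraries.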
